A study of Mus musculus with 10 samples.

Results

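A set of 1554 mouse genomic regions was called for all 4 of the mapped histone marks in spermatocytes. In round spermatids these regions were called for every mark except H4K8ac. The regions were chosen by their calls: the islands of all 8 deposited lists were merged where they shared at least 1 bp, and a region of chromosomes 1 to 19 was kept if all 4 spermatocyte lists and the round spermatid lists of H4K5ac, H4K5bu and H4K8bu had an island in it while the round spermatid H4K8ac list had none. They were 2.67% of the 58242 merged regions on these chromosomes and 5.72% of the 27155 regions called for all 4 marks in spermatocytes. They are called H4K8ac-lacking regions here. Lacking, missing or being without a mark means that no island was called, and not that the mark was absent. The 15547 regions called in all 8 lists, called fully marked regions, served for comparison. Because the choice used the calls of every list in both stages, the levels below describe the regions, and none of them is tested.

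Lysines 5 and 8 lie in the tail of histone H4, where acetylation (ac) removes the positive charge of the side chain and is found at active promoters. Butyrylation (bu) puts a longer acyl chain on the same lysine, so a given lysine carries one modification or the other. In male germ cells the bromodomain protein BRDT binds H4 tails acetylated at both lysines and takes part in the later removal of histones, when protamines replace them in elongating spermatids, and butyrylation of lysine 5 prevents this binding in vitro.

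Mononucleosomes came from the testes of mice of the strain Oncins France 1, as fractionated round spermatids (the haploid cells after meiosis) and fractionated spermatocytes (the cells in meiosis). Each stage had 1 immunoprecipitated library for H4K5ac, H4K5bu, H4K8ac and H4K8bu and 1 input library, with no treatment and no replicate. The sources used here give neither the age of the mice nor how many were pooled. The rabbit antibodies against the butyryl marks were commercial and those against the acetyl marks came from another laboratory. In such bulk material, fewer cells with a mark and less of it per cell cannot be told apart, and the purity of the fractions was not checked against marker genes.

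An island is a stretch enriched over the input of its stage, and its fold is ChIP over input reads times a constant for the list, taken here to be the ratio of the library sizes. The lists held 28031 to 41319 islands in round spermatids and 35791 to 44291 in spermatocytes, with 4768412 to 9230541 ChIP reads inside the islands of a list. The round spermatid H4K8ac list was the shortest of the 8 and had the lowest pooled fold, 3.03, against 4.05 for H4K8ac in spermatocytes. Intervals are 95%. Those of shares and of single regions cover counting error only. Those of medians give the error of the median over regions taken as independent, and not the spread of single regions. None of them covers variation between libraries.

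H4K8ac was by far the mark most often missing alone. Of 31621 autosomal regions called for H4K8ac in spermatocytes, 14787 (46.8%) had no H4K8ac island in round spermatids. Regions with 4 spermatocyte marks were called in round spermatids for all 4 marks in 57.3% of cases and for none in 24.8%, and the H4K8ac-lacking regions were the next most frequent outcome. Only 215 regions lacked H4K8bu alone, 46 lacked H4K5ac alone and 45 lacked H4K5bu alone. H4K8ac thus accounted for 83.5% (81.8 to 85.2) of the 1860 regions that kept all marks but 1.

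In the opposite direction, among regions with 4 marks in round spermatids and all but 1 in spermatocytes, 816 lacked H4K8ac, 617 lacked H4K5bu, 22 lacked H4K8bu and 16 lacked H4K5ac. There H4K8ac made up 55.5% (52.9 to 58.0) of 1471 regions. The counts differed with list length. When every list was cut to the 28031 islands with the highest fold, 679 regions lacked H4K8ac alone in round spermatids, 256 lacked H4K8bu alone, 181 lacked H4K5ac alone and 172 lacked H4K5bu alone, so that the H4K8ac share was 52.7%. All of these 679 regions overlapped H4K8ac-lacking regions of the full lists.

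**Figure D1:**
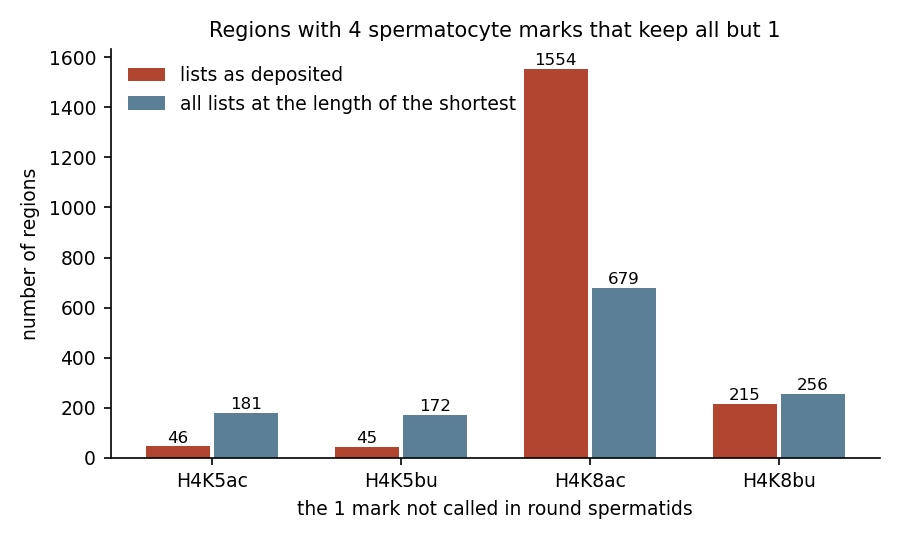
Number of autosomal regions called for all 4 marks in spermatocytes and for all but 1 in round spermatids, by the missing mark, with the lists as deposited and with all lists at the length of the shortest. H4K8ac has the highest bar in both settings, 1554 regions and 679 regions.

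In round spermatids the 3 marks that stayed were weaker in the H4K8ac-lacking regions than in fully marked ones. The H4K5ac fold had a median of 3.89 (3.82 to 3.96), H4K5bu 3.33 (3.26 to 3.39) and H4K8bu 2.97 (2.93 to 3.03), against 6.26, 4.70 and 4.26 in fully marked regions. The middle 50% of the H4K8ac-lacking regions lay between 3.17 and 4.83 for H4K5ac, and that of fully marked regions between 4.96 and 7.64, so these ranges did not overlap. For H4K5bu the ranges were 2.79 to 4.05 against 3.84 to 5.56, and for H4K8bu 2.48 to 3.57 against 3.498 to 5.08, which overlapped slightly.

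In spermatocytes the 2 sets, over regions of all lengths, had close medians for all 4 marks. The H4K8ac fold, the signal later uncalled, had a median of 4.60 in the H4K8ac-lacking regions and 4.79 in fully marked regions, a difference of -0.057 on the log2 scale. The spermatocyte medians were 7.51 against 7.87 for H4K5ac, 4.66 against 4.85 for H4K5bu and 5.50 against 5.66 for H4K8bu. Spermatocyte H4K8ac in the H4K8ac-lacking regions was spread from 2.79 at the 10th percentile to 7.36 at the 90th, inside the 2.39 to 8.08 of fully marked regions. Among regions of 3 to 6 kb alone, the difference in spermatocyte H4K8ac was larger, -0.23 (log2). Regions that had 4 spermatocyte marks and lost every call in round spermatids had a lower median, 3.82.

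**Figure D2:**
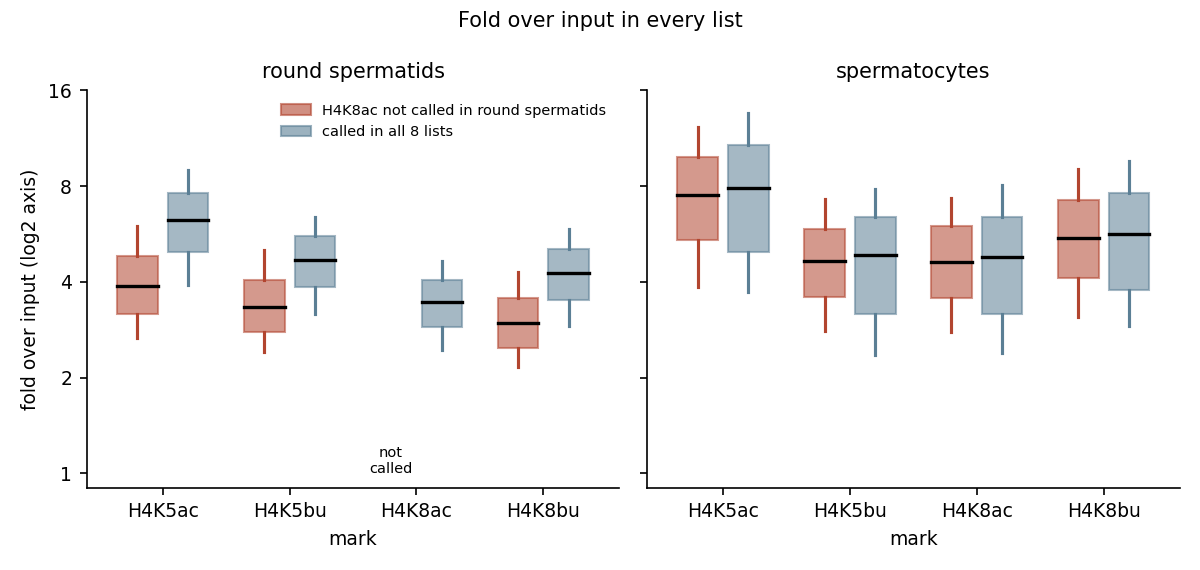
Fold over input (log2 axis) of each mark in round spermatids (left) and spermatocytes (right), for the 1554 H4K8ac-lacking and the 15547 fully marked regions. Boxes span the quartiles, black lines are medians and whiskers reach the 10th and 90th percentiles. The medians lie apart in round spermatids and close together in spermatocytes, over regions of all lengths.

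The depth behind a region was modest. The median H4K8ac-lacking region held 85.5 ChIP reads for H4K5ac, 91.0 for H4K5bu and 93.0 for H4K8bu in round spermatids, and 160, 170, 124 and 185 for H4K5ac, H4K5bu, H4K8ac and H4K8bu in spermatocytes. Fully marked regions held 302, 333, 180 and 295 in round spermatids in the same order of marks, and 300, 289, 210 and 333 in spermatocytes, over longer islands. A region with no island has no deposited H4K8ac reads, so its level there is unknown rather than 0.

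Levels of H4K8ac are known only for islands that passed the call, so they do not give the level in H4K8ac-lacking regions. Round spermatid H4K8ac islands with 37 to 68 input reads, the quartiles of input in the H4K8bu islands of H4K8ac-lacking regions, had a median fold of 2.73, and 5% of the 10659 islands lay below 1.81. Among fully marked regions, 3668 had a round spermatid H4K8bu fold of 2.48 to 3.57, the quartiles of the H4K8ac-lacking regions. H4K8ac was called there with a median fold of 2.77 and a 10th percentile of 2.18. Regions with H4K8bu as weak as in the H4K8ac-lacking set thus also occurred with H4K8ac called. They were matched by H4K8bu fold alone, and not by length or reads.

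The calls at the edge of the rule were weak. The last fully marked regions, by the q-value of their only round spermatid H4K8ac island, had q-values of 0.00978, 0.00961 and 0.0092, at chr13:66567401-66584600, chr13:65563601-65578400 and chr10:21858001-21864400 (mm9). Their H4K8ac fold in round spermatids was 1.11 (0.987 to 1.24), 1.35 (0.94 to 1.95) and 1.16 (0.98 to 1.37), over 32.5 to 99.4 input reads per kb, well above the usual input density of these regions. The nearest H4K8ac-lacking regions had a round spermatid H4K8ac island just beside them, 400 bp away at chr14:61679001-61683000 and chr18:39560401-39563800, and 600 bp away at chr2:26432001-26436200, the first by chromosome of several regions at that distance. Their round spermatid H4K8bu folds were 3.00, 2.09 and 3.09.

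The folds of all 3 remaining marks were lower in round spermatids than in spermatocytes in most H4K8ac-lacking regions, in 1150 of 1554 (74.0%, 71.7 to 76.2). In 271 regions 2 of the marks were lower, in 88 only 1, and in 45 none. Among fully marked regions, 47.6% had all 3 marks lower and 26.4% had none lower. Folds of single libraries are relative, and pooled over whole lists they were also lower in round spermatids. They were 5.30 against 6.22 for H4K5ac, 3.98 against 4.16 for H4K5bu and 3.75 against 4.69 for H4K8bu. The part of each library's enrichment in the stage ratios was not tested.

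The folds of H4K5ac and H4K8bu differed more between the stages than that of H4K5bu. The median log2 ratio of round spermatid to spermatocyte fold in H4K8ac-lacking regions was -0.92 (-0.95 to -0.88) for H4K5ac, against -0.33 in fully marked regions. For H4K8bu it was -0.88 (-0.90 to -0.83) against -0.41, and for H4K5bu -0.42 (-0.46 to -0.40) against -0.029. In linear terms the median H4K8ac-lacking region had 0.529 times its spermatocyte fold for H4K5ac, 0.545 times for H4K8bu and 0.745 times for H4K5bu. The fold covers called islands only, and H4K5bu islands covered 2400 bp in round spermatids against 3200 bp in spermatocytes. For H4K5ac it was 2900 against 2800 bp, and for H4K8bu 3000 bp in both. Median ChIP reads were 85.5 against 160 for H4K5ac, 93 against 185 for H4K8bu and 91 against 170 for H4K5bu. The part of island extent in the ratios was not tested.

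A fold at least 1.5 times lower in round spermatids was seen for H4K5ac in 1076 H4K8ac-lacking regions (69.2%), where 35.2% of all autosomal regions called for H4K5ac in both stages were that much lower. For H4K8bu the count was 1068 (68.7%), with 35.6% over all regions called for it in both stages, and for H4K5bu it was 605 (38.9%), with 20.7%. A fold at least 1.5 times higher was seen in 20 regions for H4K5ac (17.5% over all), 12 for H4K8bu (11.8%) and 71 for H4K5bu (17.9%). At a limit of 2-fold lower, the counts were 687 for H4K5ac (18.3% over all), 621 for H4K8bu (17.7%) and 233 for H4K5bu (6.52%). The rule used the calls of both stages, so these shares are set side by side and not compared.

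The difference between the 2 sets was smaller among regions of like length and with lists of equal length. H4K8ac-lacking minus fully marked regions gave a difference of median log2 ratios of -0.59 for H4K5ac, -0.40 for H4K5bu and -0.47 for H4K8bu. Among regions of 3 to 6 kb (997 H4K8ac-lacking and 4255 fully marked) it was -0.25, -0.19 and -0.18, and with lists of equal length it was -0.35, -0.22 and -0.29. The ratios of the H4K8ac-lacking regions themselves moved less under the same settings. In the same order of marks they were -0.92, -0.42 and -0.88 in the main setting. They were -0.92, -0.45 and -0.90 among regions of 3 to 6 kb, and -0.91, -0.40 and -0.91 with lists of equal length. The part of length in the difference was not tested further.

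**Figure D3:**
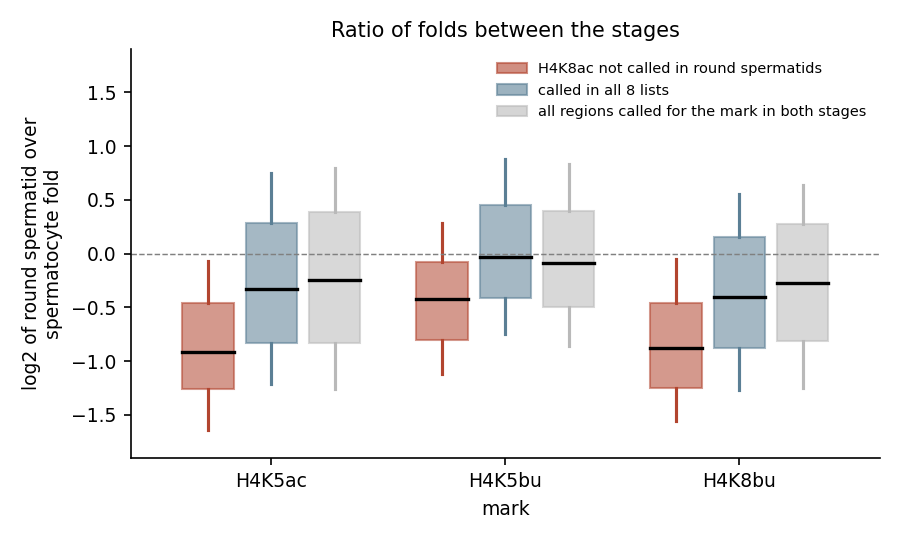
Log2 ratio of round spermatid to spermatocyte fold for the 3 marks called in both stages, in the 1554 H4K8ac-lacking regions, the 15547 fully marked regions and all autosomal regions called for the mark in both stages. Boxes span the quartiles, black lines are medians, whiskers reach the 10th and 90th percentiles, and the dashed line marks equal folds. The medians of the H4K8ac-lacking regions, -0.92, -0.42 and -0.88, lie lowest for each mark.

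The share of regions without H4K8ac was highest where the other marks were weak in round spermatids. Taking H4K8ac-lacking and fully marked regions together (17101 regions, 9.09% of them H4K8ac-lacking), 40.5% (37.4 to 43.6) lacked H4K8ac where the round spermatid H4K8bu fold was up to 2.5, and 1.58% (1.23 to 2.00) where it was over 5. By round spermatid H4K5ac fold the share was 42.9% up to 3 and 1.26% over 8. By round spermatid H4K5bu fold it was 36.4% up to 2.5 and 2.51% over 5.

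By spermatocyte H4K8ac fold the share was highest at an intermediate level. Over all lengths it was 5.84% up to a fold of 3, 13.4% from 3 to 4, 11.4% from 4 to 5, 9.99% from 5 to 6, 8.03% from 6 to 8 and 6.06% over 8. Among the strongest spermatocyte H4K8ac regions, with a fold over 8, there were 105 H4K8ac-lacking regions out of 1733.

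Short regions lacked H4K8ac more often than long ones. The share was 37.7% (33.3 to 42.2) up to 3 kb, 19.2% from 4 to 5 kb, 3.64% from 8 to 12 kb, and 23 of 4050 regions over 12 kb lacked it. The median length was 4600 bp for H4K8ac-lacking and 8200 bp for fully marked regions. Length comes from the same merged islands that define the 2 sets, so it is not independent of them. The part of the merging in these shares was not tested. Within the regions of 3 to 6 kb the order by round spermatid H4K8bu remained, from 49.7% (45.2 to 54.2) up to a fold of 2.5 to 4.85% (3.57 to 6.42) over 5. The range along spermatocyte H4K8ac was wider at these lengths than over all lengths: 17.2% up to a fold of 3, 29.8% (26.6 to 33.1) from 3 to 4, 24.1% from 4 to 5, 21.7% from 5 to 6, 14.2% from 6 to 8 and 8.86% (6.92 to 11.1) over 8. From a fold of 3 upward, the share at these lengths was lower in each stronger bin of spermatocyte H4K8ac. By spermatocyte H4K5ac at these lengths it was 17.6% up to a fold of 4, 28.2% from 6 to 8 and 9.73% over 12. By spermatocyte H4K8bu it was 16.7% up to 3, 27.6% from 5 to 6 and 11.3% over 8.

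**Figure D4:**
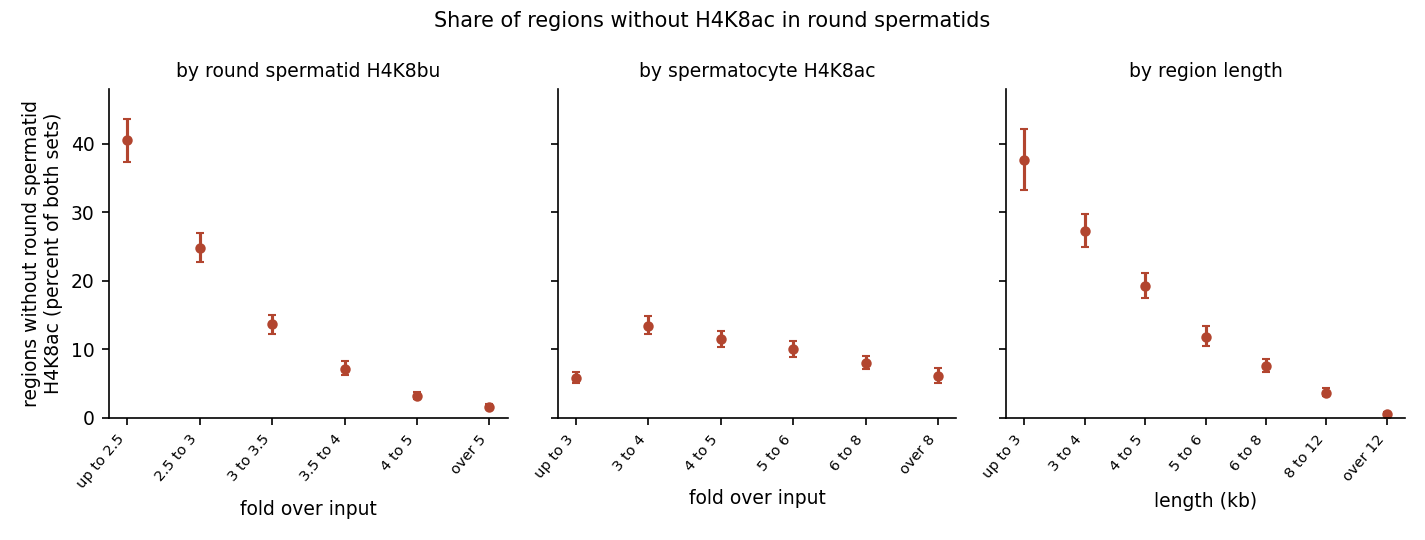
Share of regions without round spermatid H4K8ac among H4K8ac-lacking and fully marked regions together, by round spermatid H4K8bu fold (left), spermatocyte H4K8ac fold (middle) and region length in kb (right). Points are shares in percent and bars are exact 95% binomial intervals. The share runs from 40.5% to 1.58% along H4K8bu and lies between 5.84% and 13.4% along spermatocyte H4K8ac, over regions of all lengths.

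Within the H4K8ac-lacking regions, those with strong H4K8ac in spermatocytes were strong for the other marks in that stage, yet differed little in round spermatids. From the lowest to the highest quartile of spermatocyte H4K8ac fold, the median spermatocyte H4K5ac fold ran from 4.44 to 10.97 and the median spermatocyte H4K8bu fold from 3.51 to 7.82. Over the same quartiles the round spermatid medians of H4K5ac ran from 3.30 to 4.41, those of H4K5bu from 2.85 to 3.73 and those of H4K8bu from 2.65 to 3.24. The median log2 stage ratio accordingly went with the quartile, from -0.44 in the lowest to -1.23 in the highest for H4K5ac and from -0.15 to -0.68 for H4K5bu. The lists of a stage share 1 input library, and the part of this shared denominator in the pattern was not tested. Length made less difference: the round spermatid H4K5ac median was 4.10 in the shortest quartile of regions and 3.70 in the longest.

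**Figure D5:**
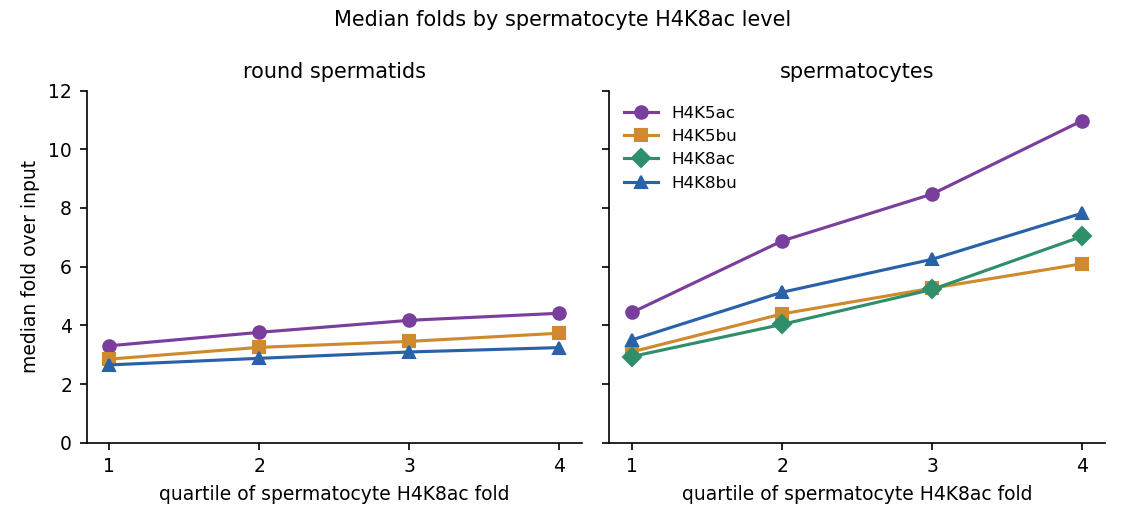
Median fold over input of each mark in H4K8ac-lacking regions, by quartile of spermatocyte H4K8ac fold (388 or 389 regions each), in round spermatids (left) and spermatocytes (right). The spermatocyte medians climb steeply with the quartile, H4K5ac to 10.97, while all 3 round spermatid medians stay between 2.65 and 4.41.

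The islands of the marks mostly overlapped within a region. Merging islands that shared at least 1 bp largely builds this in, so the overlap is a description of the regions. In 1497 of the 1554 regions (96.3%, 95.3 to 97.2) the spermatocyte H4K8ac islands shared bases with islands of all 3 remaining round spermatid marks, and in 10 regions with none of them. The median region had 88.9% of its spermatocyte H4K8ac bases inside a round spermatid H4K5ac island, 88.2% inside an H4K8bu island and 77.8% inside an H4K5bu island. Nearly every region held a single island per list, from 93.2% for H4K5bu to 97.6% for H4K8bu in round spermatids and from 92.9% to 93.6% over the spermatocyte lists.

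Islands were of similar size in both stages except for H4K5bu. In the H4K8ac-lacking regions the median covered length was 2900 bp in round spermatids and 2800 bp in spermatocytes for H4K5ac, and 3000 bp in both for H4K8bu. For H4K5bu it was 2400 bp in round spermatids against 3200 bp in spermatocytes. Spermatocyte H4K8ac islands covered 2600 bp, or 57.1% of the region. Input was denser in the islands of round spermatids, with a median of 16.4 to 16.9 reads per kb against 12.9 to 13.5 in spermatocytes, a difference that includes the depth of the 2 input libraries.

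At lysine 5 the ratio of butyryl to acetyl fold was higher in round spermatids than in spermatocytes. The 2 folds come from different antibodies, with 1 library each per stage. Their ratio is therefore relative and gives no amount of either modification. The 2 folds also cover different bases. In H4K8ac-lacking regions H4K5bu and H4K5ac islands covered 2400 and 2900 bp in round spermatids, against 3200 and 2800 bp in spermatocytes. In fully marked regions they covered 6400 and 6200 bp against 5400 and 5000 bp. The part of island extent in the ratio was not tested. Over the whole lists the pooled folds were 3.98 for H4K5bu and 5.30 for H4K5ac in round spermatids, and 4.16 and 6.22 in spermatocytes. The log2 ratio of H4K5bu to H4K5ac fold had a median of -0.22 in round spermatids and -0.64 in spermatocytes in the H4K8ac-lacking regions, and -0.42 and -0.69 in fully marked regions. It was higher in round spermatids in 79.7% of H4K8ac-lacking and 76.9% of fully marked regions, by a median of 0.41 (0.38 to 0.45) and 0.27 (0.26 to 0.27). H4K5bu was the highest of the 3 marks by fold in 377 H4K8ac-lacking regions in round spermatids (24.3%, 22.1 to 26.5) against 48 in spermatocytes (3.09%, 2.29 to 4.07). In fully marked regions H4K5bu was the highest in 8.57% in round spermatids and 1.59% in spermatocytes. At lysine 8 the H4K8ac-lacking regions have such a ratio only in spermatocytes. The log2 ratio of H4K8bu to H4K8ac fold had a median of 0.26 there. In fully marked regions it was 0.33 in round spermatids and 0.28 in spermatocytes.

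The regions were spread over all autosomes. The share of H4K8ac-lacking regions among both sets ran from 8.22% (5.99 to 10.9) on chromosome 19 to 10.4% (8.03 to 13.2) on chromosome 18, and the intervals of the 19 chromosomes all contained the 9.09% of the whole. The nearest region of either set was itself H4K8ac-lacking for 11.1% (9.55 to 12.7) of H4K8ac-lacking and 9.07% (8.62 to 9.53) of fully marked regions. The nearest round spermatid H4K8ac island lay at a median of 20800 bp from an H4K8ac-lacking region, and within 5 kb for 249 of them. For regions that had 4 spermatocyte marks and lost every call, the median was 35600 bp.

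Single regions were named from the 199 H4K8ac-lacking regions with at least 100 ChIP reads in each of the 7 lists. This minimum does not cover input reads, which were 14 to 24 for the 5 highest spermatocyte H4K8ac folds. The highest spermatocyte H4K8ac fold of the 199 was at chr3:108011001-108016400, at 11.5 (6.59 to 21.5) from 129 ChIP and 14 input reads. Its other folds were 6.41 (4.38 to 9.56) in round spermatids against 14.8 (9.56 to 23.8) in spermatocytes for H4K5ac, 4.38 against 6.05 for H4K5bu and 3.56 against 4.63 for H4K8bu. H4K5ac differed most between the stages there, and its intervals met at 9.56.

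On chromosome 6 from 28206801 to 28213600, a region second by spermatocyte H4K8ac fold (9.88, 6.11 to 16.9), all remaining marks had folds whose intervals did not overlap between the stages. H4K5ac was 3.84 (3.01 to 4.94) in round spermatids against 11.1 (8.07 to 15.5) in spermatocytes. H4K5bu was 3.62 (2.79 to 4.72) against 9.24 (6.38 to 13.8), and H4K8bu was 2.70 (2.08 to 3.52) against 13.3 (8.66 to 21.3). The spermatocyte folds rested on sparse input, 7.76, 8 and 6.76 reads per kb for H4K5ac, H4K5bu and H4K8bu. The medians of H4K8ac-lacking regions were 12.9, 13.5 and 13.2. In round spermatids the input of this region was 15.1, 20 and 20.4 reads per kb. The marks of a stage share the same input library, so their intervals are not independent. The part of the sparse input in these differences was not tested. The next by spermatocyte H4K8ac fold were chr9:123834001-123841400, chr2:158080801-158085800 and chr5:114109601-114115400, with 9.74, 9.47 and 9.40. The one on chromosome 9 kept high folds in round spermatids, 8.10 for H4K5ac, 7.23 for H4K5bu and 5.41 for H4K8bu, while on chromosome 5 they were 2.65, 2.42 and 2.58.

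By spermatocyte H4K8ac reads, the deepest region was at chr15:99928801-99945800. Its 720 H4K8ac reads covered 13200 bp in spermatocytes, and H4K8bu covered 7200 bp with 201 reads in round spermatids against 16400 bp with 1118 reads in spermatocytes. The longest region, at chr12:16896001-16928200, held 603 spermatocyte H4K8ac reads. H4K5bu covered 3800 bp of it in round spermatids against 30200 bp in spermatocytes, although its fold was 3.93 (2.98 to 5.23) against 4.55 (4.09 to 5.07). In both regions the islands of the remaining marks were much shorter in round spermatids. At chr13:97337001-97354400, the second longest region of the 199, H4K8bu covered more in round spermatids, 13600 bp against 8600 bp in spermatocytes, at a fold of 2.57 (2.15 to 3.08) against 4.82 (4.01 to 5.83).

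Other regions with many H4K8ac reads were chr17:31380601-31392200 (426 reads), chr3:25702401-25714800 (413 reads) and chr3:84752601-84761800 (402 reads). On chromosome 17 the H4K5ac fold was 2.55 (1.99 to 3.28) in round spermatids against 9.92 (8.15 to 12.1) in spermatocytes, and H4K8bu was 1.98 (1.57 to 2.498) against 7.12 (5.91 to 8.64). The region from 25702401 was also the farthest of all from a round spermatid H4K8ac island, at 549800 bp. It still had round spermatid folds of 4.43 for H4K5ac, 3.99 for H4K5bu and 2.83 for H4K8bu, against 15.002, 5.86 and 9.16 in spermatocytes. The next farthest of the 199 were chr15:12752801-12756200 and chr6:52134601-52145600, at 310200 and 170200 bp.

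The mean log2 ratio over the 3 remaining marks was lowest, among these 199, at chr11:115872401-115877800, with -2.13. H4K5ac there was 3.87 (2.78 to 5.42) in round spermatids against 21.3 (11.6 to 43.7) in spermatocytes. The spermatocyte value rested on 11 input reads and has a wide interval, which still lay above that of round spermatids. The next lowest ratio, -1.82, was at chr11:52094401-52100800.

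Some regions had a positive mean log2 ratio, with folds of the remaining marks on average higher in round spermatids. The highest mean ratio of the 199, 0.40, was at chr11:4406801-4414400, where H4K5ac was 3.75 (2.89 to 4.90) in round spermatids against 2.74 (2.06 to 3.67) in spermatocytes and the spermatocyte H4K8ac fold was 1.97 (1.52 to 2.56). These intervals overlapped. The next were chr7:30655801-30669200 (0.30) and chr2:125493601-125501800 (0.20).

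The region on chromosome 2 also shared the highest round spermatid H4K8bu fold of the 199, 7.64 (4.75 to 12.9), with chr6:13017201-13022000. Both had no round spermatid H4K8ac island, with 105 H4K8bu reads over 21 input reads each. H4K5ac in round spermatids was 9.52 (6.08 to 15.5) on chromosome 2 and 10.3 (6.38 to 17.3) on chromosome 6, and the third region by H4K8bu fold, chr3:38382001-38385400, had 9.79 (6.25 to 15.9) and an H4K8bu fold of 6.30. In these 3 regions H4K8ac was uncalled and the H4K8bu fold was above 5.08, the upper quartile of fully marked regions. These folds rested on sparse input, 8.08, 8.08 and 8.93 reads per kb, against a median of 16.8 in fully marked regions. Their 105, 105 and 103 H4K8bu reads lay below the fully marked median of 295, which came from longer islands.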

How the data were processed

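ChIP-seq reads had been processed with CASAVA 1.8.2, Bowtie2 2.2.5, deepTools 1.5.11 and SICER on build mm9, per the submitters' processing notes, and the sources used here give no settings, duplicate handling or SICER version. The authors deposited 8 lists, with ChIP and input read counts, a p-value, a q-value (all below 0.01 in the lists) and a fold per island. In the values, the deposited fold equals ChIP over input reads, scaled by a constant per list, except in 4 islands with 0 input reads. Input libraries had no list of their own.

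With Python 3.11.15, pandas 2.3.3, numpy 2.4.6 and scipy 1.17.1, islands were merged into regions, the reads of each list were summed per region and scaled by the constant. The fold covers called islands only. Depth is limited to 19 or more ChIP reads per island, and without molecular identifiers, reads may repeat a molecule. No test was run, as each group had 1 library. Shares have exact (Clopper-Pearson) intervals, folds exact conditional binomial ones and medians order-statistic ones. The scripts were tested on simulated lists with known members. The members and lists were chosen with earlier results of these data known.

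Named regions were, among those with at least 100 ChIP reads in all 7 covering lists, the 5 with the highest spermatocyte H4K8ac fold, the 5 with the most spermatocyte H4K8ac reads, the 3 with the highest and the 3 with the lowest mean stage ratio, the 3 with the highest round spermatid H4K8bu fold, the 3 longest and the 3 farthest from a round spermatid H4K8ac island. With no minimum of reads, 3 regions on either side of the rule's edge were added. Positions use mm9 and start at 1. Genes were known only for GRCm38.p6, a different build, so regions were not assigned to genes and no sequence was read. Alternatives were shorter or stricter lists, other rules for covering and merging, X added, minimum reads, limits on input density, another measure of fold and a length class.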

Additional observations from a re-analysis of the deposited data

Results flagged for a closer look

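The X chromosome, outside the rule, showed the same pattern far more often than the autosomes. On X, 70 regions were called for all 4 marks in spermatocytes and for all but H4K8ac in round spermatids, and 102 were called in all 8 lists, so that 40.7% (33.3 to 48.4) of both lacked H4K8ac, where the autosomes had 9.09%. The shares differed where H4K8bu was strong. With a round spermatid H4K8bu fold of 4 to 5, 19 of 32 regions lacked H4K8ac on X (59.4%, 40.6 to 76.3) and 161 of 5061 on the autosomes (3.18%). With a fold over 5, 46 of 110 regions lacked H4K8ac on X (41.8%, 32.5 to 51.6) and 68 of 4302 on the autosomes (1.58%). With a fold up to 4 the share was 16.7% (5.64 to 34.7) on X and 17.1% on the autosomes. The 70 regions had a median round spermatid H4K8bu fold of 5.59 from 111 ChIP reads, and a median spermatocyte H4K8ac fold of 6.73. Input was sparser on X, with 8.27 reads per kb in the round spermatid H4K8bu islands of these regions against 16.8 in the autosomal H4K8ac-lacking regions, and its part in the result was not tested.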

How the results depend on the processing

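No paired analysis was possible because each mark and stage had 1 library. In the values below, differences are log2, H4K8ac-lacking minus fully marked regions, and the stage ratio is given for H4K5ac, H4K5bu and H4K8bu in that order. With all lists at the length of the shortest there were 679 H4K8ac-lacking regions, they made up 52.7% of single absences, the stage ratio differed by -0.35, -0.22 and -0.29, and length by -0.87. With the upper 50% of each list by fold the values were 872 regions, 55.9%, -0.27, -0.19 and -0.22, and -0.54 for length, and only 176 of the 1554 regions overlapped one of the 872. Without regions over 20 input reads per kb the share was 87.5%, spermatocyte H4K8ac differed by -0.096, the stage ratio by -0.53, -0.35 and -0.42, and length by -0.84 (main value -0.83). At least 50 ChIP reads in each list gave a share of 87.1%. By the highest island fold, spermatocyte H4K8ac differed by -0.12 and the stage ratio by -0.55 for H4K5ac and -0.37 for H4K5bu. In regions of 3 to 6 kb the differences were -0.23 for spermatocyte H4K8ac and -0.25, -0.19 and -0.18 for the stage ratio. Length differed by -0.71 when islands had to span 25% of a region and by -0.87 when islands up to 1 kb apart were merged. The cause of these shifts was not tested. The other 49 values of these results stayed within the limits set, and no difference changed sign. For the count the limit was 1.5 times, and for shares it was the exact interval. For differences it was the interval of the H4K8ac-lacking median alone, shifted to the difference, which does not measure variation between libraries. The limit of 40 input reads per kb and the demand that islands overlap directly were chosen after seeing the data. Depth limits single regions: one spermatocyte H4K8ac fold from 14 input reads had an interval of 6.59 to 21.5.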
